A study of Mus musculus with 6 samples.

Results

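Hox genes encode homeodomain transcription factors that specify position along the body axis. In the mouse they lie in 4 clusters, Hoxa to Hoxd, and each gene carries the number of its paralog group, from 1 at the 3′ end of a cluster to 13 at the 5′ end. In the embryo, genes of low number are switched on first and reach furthest toward the head, and fibroblasts of adult organs keep expressing a set of Hox genes that reflects where in the body they arose. Hoxa5 is the member best known in this organ, since mice that lack it form malformed tracheas and lungs.

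The Hox genes were followed in tracheal mesenchyme, the tissue left after the epithelium was peeled off following 23 min in dispase. The 48 hpi group held 3 samples from adult male C57Bl/6 mice taken 48 h after 4 h of breathing 500 ppm SO2, and the control group held 3 samples from uninjured mice of the same strain and sex, with no genetic change named in the labels of either group. A sample was 1 pool of 4 mice hybridized to 1 Affymetrix Mouse Genome 430 2.0 array, so all errors describe the spread between pools. The members were all genes with a platform symbol of Hoxa, Hoxb, Hoxc or Hoxd and a number, measured by a probe set with no other symbol, and a gene with several such probe sets was represented by the brightest over all 6 samples. This gave 33 Hox genes out of 18193 genes on the array, covered by 48 probe sets, with more than 1 probe set for 11 of the genes. RefSeq lists 39 mouse Hox genes. The others were not analysed here as members.

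Values are RMA levels on the log2 scale, as deposited. They carry no detection call, so a level was called dim at or below 5.05, the 95th percentile of the means of 80 probe sets for olfactory and vomeronasal receptors, genes that this tissue is not known to use. Different probe sets bind their targets with different strength, so levels of different genes are given as array signal and not as amounts of transcript. A gene was called changed when its adjusted p was under 0.05 in limma over all probe sets.

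Within a group the arrays had pairwise correlations of 0.987 to 0.994. All 8 fibroblast, 7 chondrocyte and 6 smooth muscle markers lay above the dim bound, and so did 6 of 8 markers of airway epithelium. The epithelial markers gave 0 calls, and 1 was called lower with the replicate number as a block in the fit. Their median log2 fold change was 0.059. Summed on the linear scale they reached 1582 to 6886 at 48 hpi and 7306 to 12930 in controls, a gap that rested on the secretory cell gene Scgb1a1 (log2 fold change -2.57, adjusted p = 0.146). All 7 macrophage markers, all 7 mitosis genes, 3 of 4 neutrophil markers and 2 of 5 endothelial markers were called higher, while 2 of 8 fibroblast, 2 of 7 chondrocyte and 1 of 2 Schwann cell markers were called lower. Neutrophil markers summed to 1490 to 3899 at 48 hpi against 88 to 332 in controls, and chondrocyte markers to 24030 to 29271 at 48 hpi against 34816 to 41071 in controls. In such bulk samples, fewer cells of a type and less RNA per cell cannot be told apart.

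Members above the dim bound lay in the low and middle paralog groups. Of the 33 members, 12 lay above the dim bound, or 36.4%, against 68.9% of all genes. These were Hoxa2, Hoxa3, Hoxa4, Hoxa5, Hoxa7 and Hoxa9, then Hoxb2, Hoxb3 and Hoxb4, then Hoxc9, and finally Hoxd8 and Hoxd9. All 12 fell in paralog groups 2 to 9, where they made up 12 of the 23 members numbered 1 to 9, while 0 of 10 members in groups 10 to 13 passed the bound. The bound matters here. At the signal of the brightest receptor probe set (6.40), 6 members remained, namely Hoxa5, Hoxa9, Hoxb2, Hoxb3, Hoxb4 and Hoxd8.

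**Figure D1:**
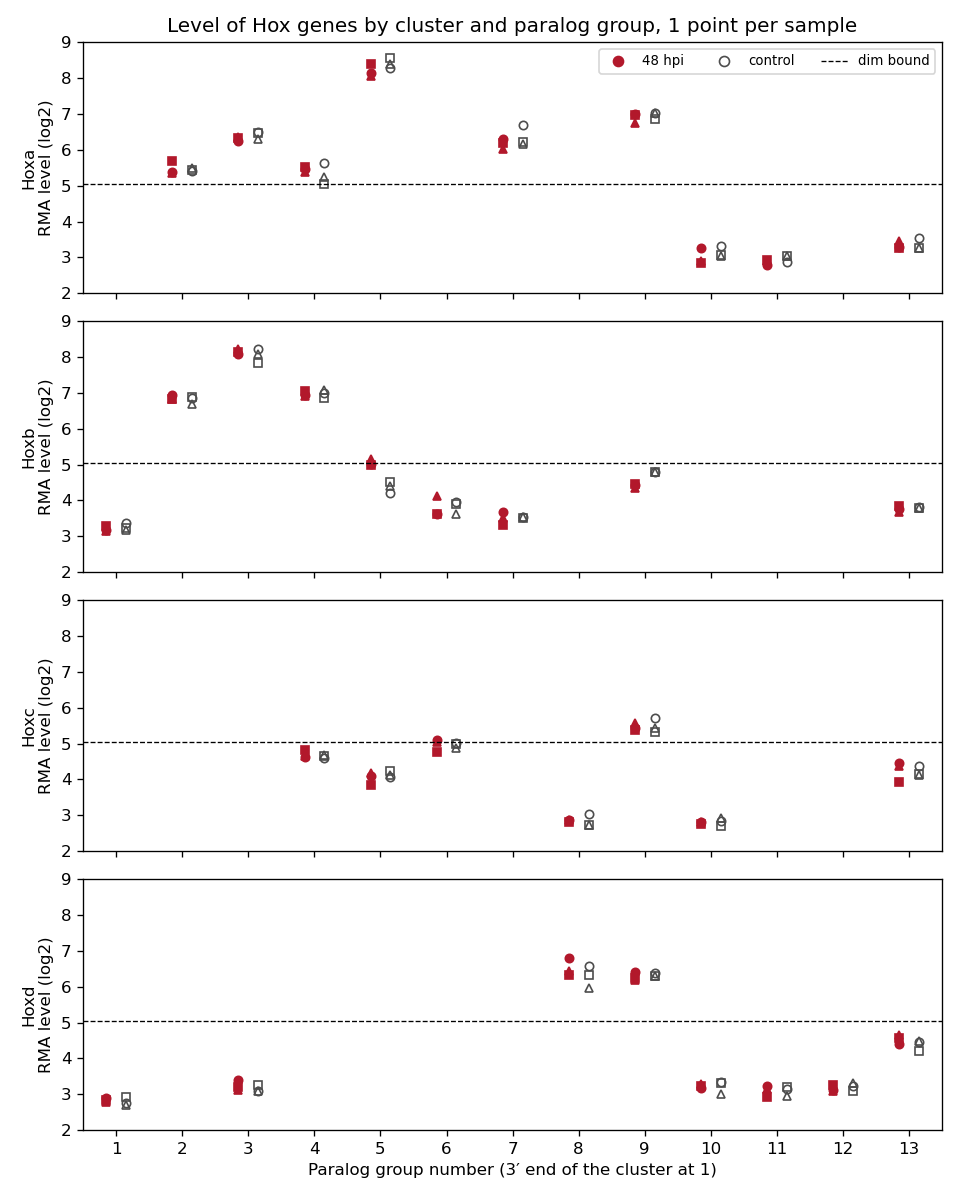
RMA level on the log2 scale (vertical axes) of each Hox gene by paralog group number (horizontal axis) in the 4 clusters, with 1 point per sample, circle, square and triangle for replicates 1, 2 and 3, and the dim bound of 5.05 as a dashed line. The 10 genes of groups 10 to 13 all lay below the bound, and Hoxa5 (mean 8.30) and Hoxb3 (8.10) gave the brightest signals.

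The promoters of a bright and a dim gene of the Hoxa cluster are given beside the change of signal along it. RefSeq promoter windows (GRCm38.p6, 250 bases before to 50 after the start) were at hand for 22 of the 39 Hox genes, in 24 windows. Those of Hoxa5, the brightest member, and of Hoxa13, the last gene of the same cluster and dim here, are shown 5′ to 3′, both from the minus strand, with matches to the motifs searched in capitals. The Hoxa5 window is chr6:52204538-52204837 and the Hoxa13 window is chr6:52260831-52261130.
Hoxa5: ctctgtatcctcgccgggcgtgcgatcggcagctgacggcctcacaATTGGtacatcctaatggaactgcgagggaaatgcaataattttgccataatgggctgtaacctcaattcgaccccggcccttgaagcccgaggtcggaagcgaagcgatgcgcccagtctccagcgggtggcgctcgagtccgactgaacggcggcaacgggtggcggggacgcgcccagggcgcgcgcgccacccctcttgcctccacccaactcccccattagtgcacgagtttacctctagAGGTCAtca
Hoxa13: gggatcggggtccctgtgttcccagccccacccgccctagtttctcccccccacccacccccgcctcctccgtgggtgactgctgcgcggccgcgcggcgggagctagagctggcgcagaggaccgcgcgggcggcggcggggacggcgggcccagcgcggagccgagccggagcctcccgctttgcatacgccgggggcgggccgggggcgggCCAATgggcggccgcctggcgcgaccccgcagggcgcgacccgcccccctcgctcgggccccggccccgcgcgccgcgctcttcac

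The motifs were searched on both strands, without regard to overlap. CCAAT is the box bound by the factor NF-Y. The letters AGGTCA form a core repeat bound by retinoic acid receptors and their relatives. TATAAA is the TATA box. A core common to many homeodomain proteins is TAATTA. Pbx and Hox proteins bind jointly to TGATTNAT. The Hoxa5 window held 1 CCAAT match, read on the other strand, and 1 AGGTCA match, and the Hoxa13 window held 1 CCAAT match. Over the 24 Hox windows, 15 held CCAAT and 7 held AGGTCA, where 37.4% and 16.3% of all 32851 promoter windows did. TATAAA was in 4 Hox windows against 13.6% of all windows, and TAATTA and TGATTNAT were in 2 each, against 5.29% and 3.22%. Both windows with TAATTA belonged to 1 gene, Hoxd11, and those with TGATTNAT to Hoxa2 and Hoxd11. The Hoxa5 window was 61.7% and the Hoxa13 window 81.0% G and C, and the medians were 57.7% over Hox windows and 52.7% over all. A match is a description of letters and not a site in use.

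The Hoxa cluster had the most members above the bound, 6 of 9. Hoxa5 gave the strongest signal of any Hox gene, at 8.13, 8.41 and 8.06 at 48 hpi and 8.28, 8.55 and 8.39 in controls. The 3 values at 48 hpi overlapped with those of controls, and the log2 fold change was -0.21 ± 0.12 (SE, adjusted p = 0.412). Its second probe set lay lower, at 7.66, 7.73 and 7.72 at 48 hpi and 8.02, 7.98 and 8.04 in controls. Here every 48 hpi value was below every control value, with a log2 fold change of -0.31 ± 0.077 (SE), yet the difference did not pass (adjusted p = 0.0771, and 0.0618 with the replicate number as a block). Both probe sets thus had negative log2 fold changes and neither was called.

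Hoxa9, which in mice also acts in blood progenitors, followed at 6.997, 6.97 and 6.75 at 48 hpi and 7.04, 6.86 and 7.03 in controls. Hoxa3, required in mice for the thymus and parathyroid, had levels of 6.25, 6.34 and 6.37 at 48 hpi and 6.5, 6.47 and 6.29 in controls. In both genes the groups overlapped. Hoxa7 was at 6.32, 6.19 and 6.02 at 48 hpi and at 6.68, 6.21 and 6.17 in controls, where control replicate 1 stood above the other 5 samples. Its log2 fold change of -0.18 ± 0.16 did not pass (adjusted p = 0.582).

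Hoxa2, which patterns the second pharyngeal arch in mice, and Hoxa4 lay just above the bound. Hoxa2 was at 5.38, 5.70 and 5.36 at 48 hpi and 5.40, 5.45 and 5.49 in controls. Hoxa4 was at 5.48, 5.53 and 5.37 at 48 hpi and 5.64, 5.05 and 5.25 in controls, the widest control spread of the Hoxa genes (SD 0.30). Beyond Hoxa9 the signal of the cluster broke off. Hoxa10, Hoxa11 and Hoxa13, which act in the reproductive tract and distal limb, had means of 3.07, 2.93 and 3.34 over the 6 samples.

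In the Hoxb cluster the bright members were the 3 of groups 2 to 4. Hoxb3, a paralog of Hoxa3, was at 8.08, 8.13 and 8.22 at 48 hpi and 8.24, 7.85 and 8.10 in controls. Hoxb4, known in blood stem cells, was at 6.96, 7.06 and 6.91 at 48 hpi and 7.01, 6.85 and 7.08 in controls. Hoxb2, a hindbrain gene in the embryo, was at 6.93, 6.84 and 6.83 at 48 hpi and 6.85, 6.88 and 6.68 in controls. All 3 overlapped between groups, with log2 fold changes of 0.083 for Hoxb3, -0.0019 for Hoxb4 and 0.059 for Hoxb2. Hoxb1, at the very 3′ end, was dim (mean 3.23), as were Hoxb6 (3.81), Hoxb7 (3.51) and Hoxb13 (3.78).

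The Hoxc and Hoxd clusters had 1 of 7 and 2 of 8 members above the bound. Hoxc9, a thoracic gene, was at 5.44, 5.37 and 5.58 at 48 hpi and 5.72, 5.32 and 5.42 in controls. Hoxc6 lay just under the bound at 5.10, 4.77 and 5.04 at 48 hpi and 5.00, 5.00 and 4.88 in controls. Hoxc4 was dim in all 6 samples, with 4.62, 4.81 and 4.66 at 48 hpi and 4.59, 4.66 and 4.69 in controls. None of the 3 separated the groups. Hoxc5 (4.10), Hoxc8 (2.84), Hoxc10 (2.80) and Hoxc13 (4.23), the last a gene of hair and nails, were dim in their means.

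Hoxd8 was at 6.82, 6.33 and 6.44 at 48 hpi and 6.59, 6.33 and 5.96 in controls. Its log2 fold change of 0.23 ± 0.19 was the largest positive value among the 12 members above the bound, and its 95% interval ran from -0.21 to 0.68 (adjusted p = 0.557). Hoxd9 was at 6.42, 6.23 and 6.20 at 48 hpi and 6.39, 6.31 and 6.29 in controls. Hoxd13, a gene of the digits and hindgut that was dim here, was at 4.40, 4.56 and 4.66 at 48 hpi and 4.47, 4.20 and 4.47 in controls. Hoxd1, Hoxd3, Hoxd10, Hoxd11 and Hoxd12 had means between 2.81 and 3.22. Of 2 probe sets shared by Hoxd4 and Hoxd3, which cannot assign signal to either gene, 1 lay above the bound at 5.12, 5.27 and 5.21 at 48 hpi and 5.67, 5.27 and 5.12 in controls.

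Across the 33 members, level was loosely lower at higher paralog group numbers, with Spearman's rho of -0.34 and Pearson's r of -0.34 over genes. Within clusters rho was -0.52 for 9 Hoxa genes, -0.27 for 9 Hoxb genes, -0.21 for 7 Hoxc genes and 0.12 for 8 Hoxd genes. The points share the 6 arrays and differ in probe binding, so these values only describe the plot of level by cluster and paralog group.

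At 48 hpi 2 of the 33 Hox genes were called changed. Hoxb5 rose and Hoxb9 fell, both with means over the 6 samples below the dim bound, and the other 31 members were not called. Over all genes 4.97% were called higher and 1.24% lower. With 1 member of 33 in each direction, the Hox genes as a whole did not stand out from that background. By level, the calls were 2 of the 21 dim members and 0 of the 12 above the bound. Over all genes they were 82 of 5656 at or below the bound and 1048 of 12537 above it. These shares by level were not tested. With the replicate number as a block, 1 Hox gene was again called in each direction, against 8.77% higher and 4.64% lower over all genes. The 3 and 3 values did not overlap in the same pair of members, 1 higher and 1 lower, where 17.2% of all genes were higher and 13.1% lower without overlap. The median log2 fold change was -0.012 over the members and -0.015 over all genes, and the median of the unsigned values was 0.059 over the members and 0.14 over all genes. Among genes above the bound those medians of unsigned values were 0.079 for the 12 Hox genes and 0.18 for all.

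**Figure D2:**
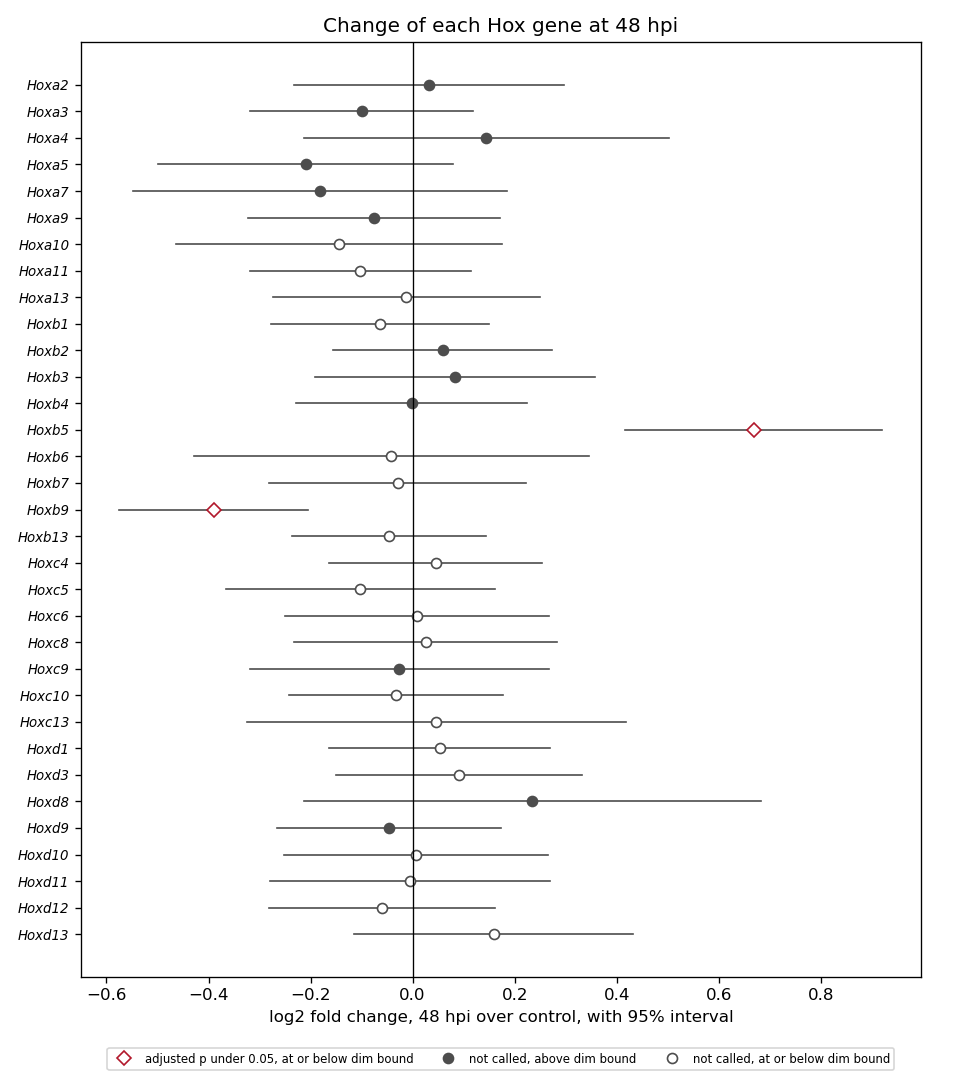
Log2 fold change at 48 hpi over control (horizontal axis) of the 33 Hox genes (vertical axis, by cluster and number), with the 95% interval of the limma fit as a bar. Hoxb5 (0.67) and Hoxb9 (-0.39) were the called genes, and all 12 genes above the dim bound had intervals that include 0.

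Hoxb5, expressed in foregut and lung mesenchyme of the mouse embryo, had the largest difference. It was at 5.02, 5.00 and 5.16 at 48 hpi and 4.22, 4.53 and 4.42 in controls. Every 48 hpi value was above every control value. The log2 fold change was 0.67 ± 0.11 (SE), or 1.59-fold, with an adjusted p of 0.0199 in limma. The control mean of 4.39 lay below the dim bound and the 48 hpi mean of 5.06 next to it, a range in which array signal understates folds. The call depended on which sample was left out. It held without control replicate 1 (adjusted p = 0.0436) or control replicate 2 (0.0391) and was lost without control replicate 3 (0.0700), 48 hpi replicate 1 (0.0557), 48 hpi replicate 2 (0.0518) or 48 hpi replicate 3 (0.0926). It was also lost without both samples numbered 1 (0.0718) and by one-way analysis of variance (0.108). The antisense transcript Hoxb5os, measured by its own probe set, was at 5.50, 5.95 and 5.67 at 48 hpi and 5.63, 5.70 and 5.45 in controls, with overlap.

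Hoxb9, which helps to pattern the ribs in mice, moved the other way. It was at 4.42, 4.46 and 4.34 at 48 hpi and 4.81, 4.80 and 4.78 in controls. The groups did not overlap, and the spread was smaller in controls (SD 0.014) than at 48 hpi (SD 0.060). The gene fell by 0.39 ± 0.079 (SE) on the log2 scale, with an adjusted p of 0.0417. Both group means were below the dim bound. This call was lost without any 1 of the 6 samples (adjusted p 0.0894 to 0.162), without both samples numbered 1 (0.136), with a mean-variance trend (0.0570), with arrays centred on their medians (0.0693) and by one-way analysis of variance (0.0638).

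Beside both genes, markers of several other cell types also differed between the groups, as given above for neutrophils and cartilage. Macrophage markers summed to 4341 to 5193 at 48 hpi against 1661 to 2083 in controls, and mitosis genes to 1885 to 2750 at 48 hpi against 211 to 296 in controls. The part of these cells in the values of Hoxb5 and Hoxb9 was not tested.

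**Figure D3:**
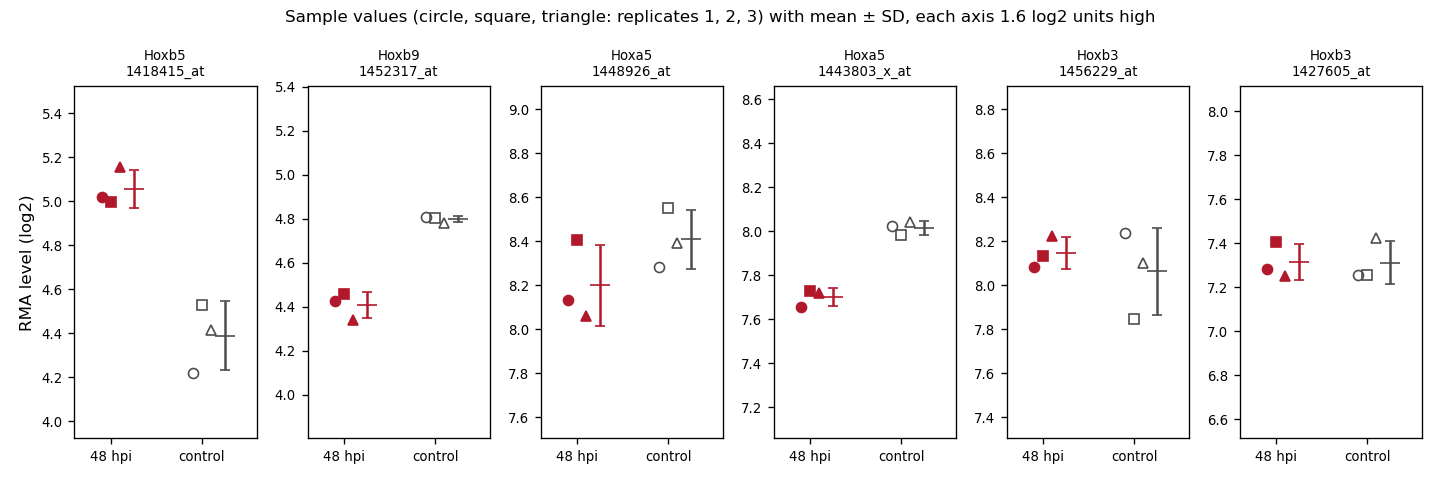
RMA level on the log2 scale (vertical axes, each of the same height) in the 3 samples at 48 hpi and the 3 control samples, with the mean ± SD of each group, for Hoxb5, Hoxb9 and both probe sets of Hoxa5 and of Hoxb3. Groups separate for Hoxb5, Hoxb9 and the dimmer Hoxa5 probe set, and overlap in the other panels.

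The 12 members above the bound were taken by their brightest probe set. Of these, 0 were called by limma, with the replicate block or by a one-way analysis of variance. Likewise 0 had an unadjusted p under 0.05 in limma or in the analysis of variance. The dimmer Hoxa5 probe set, also above the bound, had an unadjusted p of 0.0046 in limma. Of all 12537 genes above the bound, 1048 were called by limma, 2248 with the replicate block and 42 by the analysis of variance. An unadjusted p under 0.05 was found for 3846 of them in limma and for 3365 in the analysis of variance. A missed threshold does not show that levels were equal. The lowest bound of the 95% intervals of the 12 members was -0.55, for Hoxa7, and the highest 0.68, for Hoxd8. The intervals thus still held changes of that size. Adjusted p of the 12 ran from 0.412 for Hoxa5 to 0.994 for Hoxb4. The 19 dim members that were not called had log2 fold changes from -0.14 to 0.16.

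Averaged over the 12 members above the bound, the level per sample was 6.60, 6.59 and 6.51 at 48 hpi and 6.70, 6.51 and 6.51 in controls. Control replicate 1 stood highest, with 10 of the 12 genes above their control mean. The group means were 6.57 ± 0.050 at 48 hpi and 6.57 ± 0.11 in controls (SD, n = 3). By cluster the difference at 48 hpi was -0.065 for 6 Hoxa genes, 0.047 for 3 Hoxb genes, -0.026 for the 1 Hoxc gene and 0.094 for 2 Hoxd genes. Over the 6 samples, the non-Hox genes whose values tracked this average most closely were Lrit2 (Pearson's r 0.993), Marchf9 (0.989) and Vil1 (0.987), all of them dim, with means of 2.50, 4.54 and 3.77. They were picked by this r out of the 18193 genes on the array, Hox genes aside. With 6 samples and so many genes searched, values this high can come from the choice alone, and no test was made.

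Probe sets of the same gene could differ widely in level. Hoxa4 and Hoxa9, counted above the bound by their brighter probe set, each had a second that was dim (means 3.01 and 3.71). Hoxa3 had 2 probe sets near the level used here (6.37 and 6.31) and 2 dim ones (4.21 and 4.12). Among its 4, the one at 6.31 and the one at 4.12 had 48 hpi values all below the control values, with log2 fold changes of -0.056 and -0.19 that did not pass (adjusted p = 0.747 and 0.336). Over all 48 Hox probe sets 5 did not overlap between groups and 2 were called, again those of Hoxb5 and Hoxb9. Of all 45037 probe sets 1572 were called higher and 381 lower. The share of all probe sets without overlap is not given here, so the 5 have no background beside them.

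Hox proteins bind DNA together with TALE homeodomain cofactors, and the marks set by Polycomb and trithorax complexes keep their clusters silent or active. A set of 108 genes measured in 8 lists covered these cofactors and regulators, retinoid enzymes and receptors, and other genes upstream of Hox genes. It also covered the related ParaHox and Evx genes, and further factors that mark foregut or head mesenchyme. Of the 108, 3 rose and 1 fell, against 4.97% and 1.24% of all genes. With the replicate block 7 rose and 5 fell, against the same shares of all genes as above for that fit. Unadjusted p under 0.05 in limma is common here, with 4341 of all 18193 genes and 3846 of the 12537 above the bound. In the analysis of variance 3860 of all genes had one.

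Of 8 cofactors measured, all but Pbx4 were above the bound and 0 were called by limma, with or without the block, or by analysis of variance, while 1 had an unadjusted p under 0.05. Their median log2 fold change was -0.068. The brightest, Pbx3, was at 9.85, 10.01 and 9.67 at 48 hpi and 10.23, 10.13 and 9.96 in controls, with overlap and a log2 fold change of -0.26 ± 0.12 (adjusted p = 0.298). Of the 8 ParaHox and Evx genes 7 were dim, and 0 were called or had an unadjusted p under 0.05 in limma, while 1 had one in the analysis of variance. The brightest of them, Gsx1, had means of 5.12 ± 0.15 at 48 hpi and 5.26 ± 0.087 in controls (SD, n = 3).

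The Polycomb subunit called by limma without the block was Ezh2, the methyltransferase of Polycomb repressive complex 2, which rose by 0.86 ± 0.14 (SE, adjusted p = 0.0202). It was at 7.53, 7.72 and 8.003 at 48 hpi and 6.77, 7.03 and 6.87 in controls, without overlap. It was the 1 called member of 11 in its list, where 3 had an unadjusted p under 0.05 in limma and the median was 0.013. The mitosis genes, 7 of 7 called higher, moved with it, and their part in the value was not tested. All 18 members of Polycomb repressive complex 1 were above the bound and 0 were called by limma, while 4 had an unadjusted p under 0.05, with a median of -0.0080. The brightest, Yaf2, averaged 9.50 at 48 hpi and 9.61 in controls. In the same list Cbx7, a reader of the Polycomb mark, fell by 0.72 ± 0.13 (SE) with the replicate block (adjusted p = 0.0177, against 0.120 without it). The list of trithorax genes and histone demethylases, which also held other factors such as Dot1l, Mllt1 and Ctcf, had 16 measured genes. It gave 0 calls in limma with or without the block and 4 at an unadjusted p under 0.05, with a median of 0.041. The brightest of the 16 was the insulator protein gene Ctcf (9.59 at 48 hpi and 9.53 in controls).

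Upstream of Hox genes, Aldh1a2, which makes retinoic acid in embryonic mesenchyme, rose by 0.64 ± 0.11 (SE, adjusted p = 0.0235). It was at 7.07, 6.80 and 7.15 at 48 hpi and 6.34, 6.40 and 6.37 in controls, without overlap. It was the 1 called of 10 genes in its list, labelled inducers of Hox genes. In that list 4 had an unadjusted p under 0.05 in limma, and the median was -0.12. That list was mixed, since it also held Cyp26a1 and Cyp26b1, enzymes that break down retinoic acid. Its median is therefore not a measure of induction. With the block, Aldh1a1, a second enzyme of the family, fell by 1.13 on the log2 scale (adjusted p = 0.0173, against 0.264 without it).

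Of 21 other foregut and splanchnic mesenchyme factors 17 were above the bound and 0 were called by limma or by analysis of variance, while 4 had an unadjusted p under 0.05 in limma. The brightest was Nr2f2, at 9.39 ± 0.085 at 48 hpi and 9.23 ± 0.087 in controls (SD, n = 3, adjusted p = 0.399). With the block 2 rose, Osr1 (0.40, adjusted p = 0.0326) and Osr2 (0.53, 0.0326), and 2 fell, Isl1 (-0.82, 0.0340) and Eya1 (-0.69, 0.0214).

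Among 16 homeobox genes of head mesenchyme 5 were above the bound, and 6 had an unadjusted p under 0.05 in limma. Alx1, which in the embryo shapes the face, fell by 0.72 ± 0.075 (SE, adjusted p = 0.00376). It was at 6.86, 6.84 and 6.85 at 48 hpi and 7.57, 7.55 and 7.60 in controls, a separation wider than the spread in either group. The chondrocyte markers were also lower at 48 hpi, and their part in the value was not tested. Lhx8, dim in all 6 samples (3.46 ± 0.14 at 48 hpi and 2.92 ± 0.060 in controls, SD, n = 3), rose by 0.54 ± 0.099 (SE, adjusted p = 0.0319). With the block Prrx2 (0.35, adjusted p = 0.0478) and Lhx6 (0.43, 0.0376) rose as well. When 1 sample was left out, Alx1 stayed called in all 6 fits, Ezh2 only without control replicate 2 or 48 hpi replicate 1, Aldh1a2 only without 48 hpi replicate 2 and Lhx8 only without 48 hpi replicate 3. In the fits that lost a call, adjusted p reached 0.0775 for Ezh2, 0.0964 for Aldh1a2 and 0.113 for Lhx8.

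**Figure D4:**
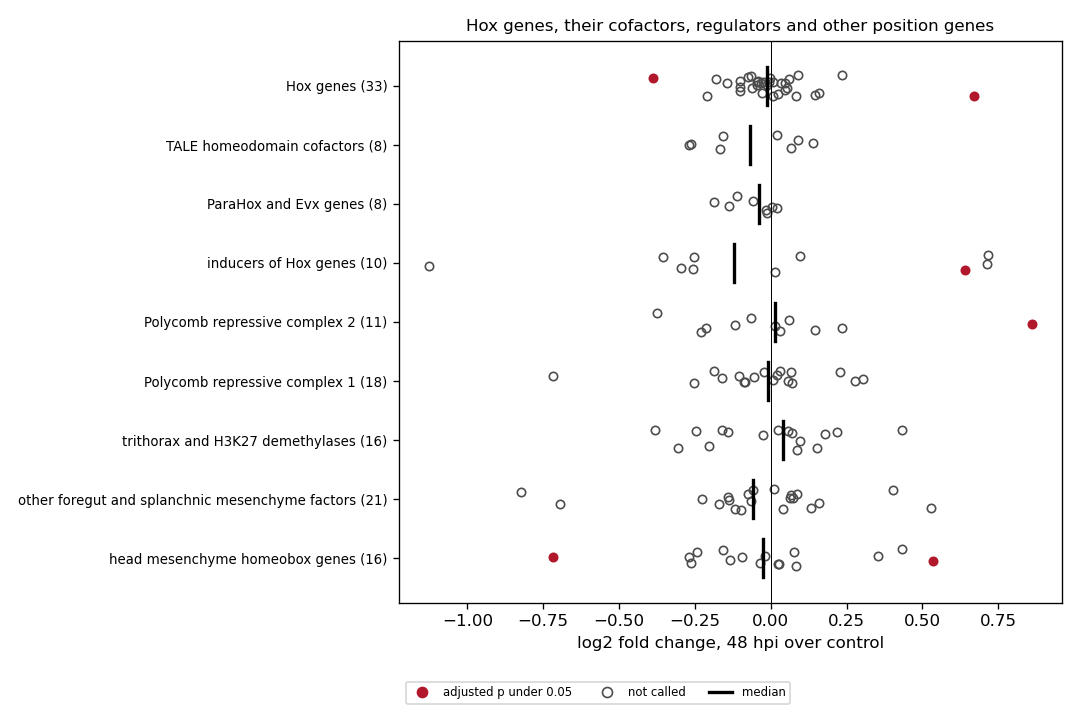
Log2 fold change at 48 hpi over control (horizontal axis) of the 33 Hox genes and of the measured members of 8 lists (vertical axis, number of genes in brackets), where a point is a gene, filled points are called genes and short bars are medians. Medians ran from -0.12 for the mixed list labelled inducers of Hox genes to 0.041 for the mixed list labelled trithorax and H3K27 demethylases.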

How the data were processed

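RNA was amplified by the authors and hybridized to 6 Affymetrix GeneChip Mouse Genome 430 2.0 arrays. The deposited values are log2 levels per probe set after RMA (robust multi-chip average), a method that subtracts background and then equalizes the distributions of all arrays, which hides any shift common to most genes. Partek 6.5 and Affymetrix Expression Console 1.1 are the tools given in the submitters' processing notes. The number of arrays limits the precision.

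Of 45101 probe sets 64 controls were left out. Platform symbols were single for 34945 of the other 45037, which gave 18193 genes. Limma 3.58.1 in R 4.3.3 (lmFit, eBayes, two-sided, group only, Benjamini-Hochberg over 45037 probe sets, threshold 0.05) had 4 residual and 3.21 prior degrees of freedom. The study's methods used an analysis of variance over 2 tissues, of which 1 is here. The fit was tested on simulated data. The Hox members and all lists were chosen with earlier results of these data known. Values per sample were given for members called with or without the replicate block, the 3 brightest of each cluster, the 2 largest log2 fold changes in each direction above the dim bound, and members next to that bound. List members were named if called, and otherwise the brightest was. Further names, such as the list members called only with the block, came after values were seen. Of 117 listed regulator and position genes 108 were measured.

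Both groups share replicate numbers, and deviations from group means correlated at 0.62, 0.36 and 0.34 for samples of the same number. Samples of different numbers gave -0.43 to 0.18. The positive values among these were 48 hpi replicate 2 with control replicate 3 (0.18) and 48 hpi replicate 3 with control replicate 2 (0.11). Replicates 2 and 3 were thus less clearly paired than replicate 1. Nothing in the labels ties a number to a batch, so the pairing comes from the data. A fit with the number as a block has 2 residual degrees of freedom. It changed no Hox call.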

Additional observations from a re-analysis of the deposited data

How the results depend on the processing

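Of the Hox genes, 1 was called higher and 1 lower. Leaving out 1 sample gave 0 to 1 higher and 0 lower. Counts were 0 and 0 with dim probe sets removed, which removes both genes, by one-way analysis of variance and without both samples numbered 1 (chosen after seeing the data). The lower call was also 0 with a mean-variance trend or arrays centred on their medians. With the replicate block both calls held. At an unadjusted p under 0.05 in limma, 2 of the 33 members passed, against 4341 of all 18193 genes.

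Over all probe sets 1572 were called higher and 381 lower, against 2896 and 2032 with the replicate block, 70 and 8 by analysis of variance, 683 and 144 without both samples numbered 1, and 548 to 1086 and 34 to 176 with 1 sample left out. The 8 lists gave 3 higher and 1 lower, 7 and 5 with the replicate block, 0 higher by analysis of variance, 1 and 3 without both samples numbered 1, 2 lower with dim probe sets removed, and 0 to 1 and 1 to 2 with 1 sample left out. Members above the dim bound numbered 12, and 6 at the highest receptor probe set. They numbered 11 with the median of each gene's probe sets, which lost Hoxa4, and 13 in 48 hpi samples only, which gained Hoxb5.

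The sign of small, uncalled log2 fold changes turned. Hoxa4 had -0.017 on its second probe set, and Hoxc6 -0.040 on its second probe set or the median of its probe sets. With arrays centred on their medians Hoxb4 was 0.029 and Hoxc9 0.0046. Without both samples numbered 1 Hoxb4 was 0.023, Hoxc6 -0.033 and Hoxc9 0.10. With 1 sample left out, the range was -0.078 to 0.090 for Hoxa2, -0.14 to 0.0036 for Hoxa9, -0.0033 to 0.10 for Hoxb2, -0.024 to 0.17 for Hoxb3, -0.068 to 0.050 for Hoxb4, -0.012 to 0.085 for Hoxc4, -0.056 to 0.11 for Hoxc6 and -0.11 to 0.090 for Hoxc9. The cause was not tested. The difference in mean level over the members above the bound, -0.0072, ran from -0.041 with the median of each gene's probe sets to 0.054 without control replicate 1. That last move was larger than the SD between replicates at 48 hpi (0.050) and smaller than that in controls (0.11), and the moves under the other alternatives run for it were smaller than both.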
